A study of Mus musculus with 198 samples.

Results

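The solute carriers described here are the genes of the Slc5, Slc6, Slc7, Slc13, Slc16, Slc22 and Slc34 families, chosen by name alone. A gene was taken where its symbol was one of these family names followed by a and a number and where it had at least 10 counts over all libraries. Of 92 such symbols, Slc22a16 and Slc6a11 had no count, which left 90 of the 56332 genes in the table. These were 11 Slc5, 18 Slc6, 15 Slc7, 5 Slc13, 14 Slc16, 24 Slc22 and 3 Slc34 genes. The study gave C57BL/6 mice either a control antibody or an antibody against PAPP-A (aPAPPA in the labels) for 17 weeks, and PAPP-A is a secreted protease that cleaves binding proteins of the insulin-like growth factors. RNA was sequenced from kidney, liver, skin, lung, spleen, heart, bone marrow, subscapular fat and gonadal fat. The control group held 12 mice, 6 of each sex, and the aPAPPA group held 10 mice, 5 of each sex. The labels name no mutation or transgene, and the sources used here state neither the age of the mice nor what the control antibody is. All 22 mice gave all 9 tissues, for 198 libraries. The labels say that whole tissue was extracted, and the sources used here do not state which part of a kidney was taken.

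These families move small molecules across the plasma membrane, most of them by coupling the substrate to sodium or by exchanging it for another solute. In the kidney, cells of the proximal tubule take glucose, amino acids, phosphate, sulfate and carboxylates back from the filtrate through carriers on the apical side, and carriers on the basolateral side take organic anions and cations from the blood for secretion. The liver uses other members of the same families to take up drugs, amino acids, betaine and hormones, and several carriers of rodent kidney and liver are known to differ between the sexes.

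Levels are given in CPM, a gene's counts scaled to the library's counts outside 9 very abundant features, and levels of different genes are compared per kilobase of exon length. Total counts per library ran from 4138419 to 19517950 with a median of 8950258, but the counts outside the abundant features ran only from 33377 to 4694597. They were 315460 to 4694597 in kidney and 301790 to 2191487 in liver, and this sets the precision for weakly expressed carriers. Summed hepatocyte markers were 59420 to 144590 CPM in the 22 livers and 736 to 2191 CPM in the 22 kidneys, and summed proximal tubule markers were 12778 to 33703 CPM in kidney and 1154 to 1913 CPM in liver. In 5 libraries, none of them kidney or liver, the markers of the labelled tissue were far below the other libraries of that tissue. They were the gonadal fat of aPAPPA male 58, the heart of aPAPPA male 56 and of control female 22, the lung of control male 68 and the skin of aPAPPA female 36. Results from those tissues are given with and without them where they differ.

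Carrier RNA made up a larger share of the counts in kidney than in any other tissue. In control mice the 90 genes made up 1.44% ± 0.0517 (SD, n = 12) of kidney counts outside the abundant features, against 0.355% in lung, 0.256% in skin, 0.245% ± 0.0173 in liver and 0.0898% in heart. Among the 85 genes that reached a mean of 1 CPM in at least 1 tissue, 44 had their highest mean in kidney, 11 in skin, 9 in liver, 6 in lung, 5 in gonadal fat, 4 in bone marrow, 3 in subscapular fat, 2 in spleen and 1 in heart. For 27 of the 44, every control kidney lay above every control library of the next tissue. The same counts over all genes are not given here, so these describe the carriers only. Scaled by TMM factors instead, kidney held the highest mean of 41 and liver of 12. In kidney 73 genes reached a mean of 1 CPM and 32 reached 100 CPM, and in liver 45 and 9 did so. These are levels in whole organs, in which fewer cells of a type and less RNA per cell cannot be told apart.

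**Figure D1:**
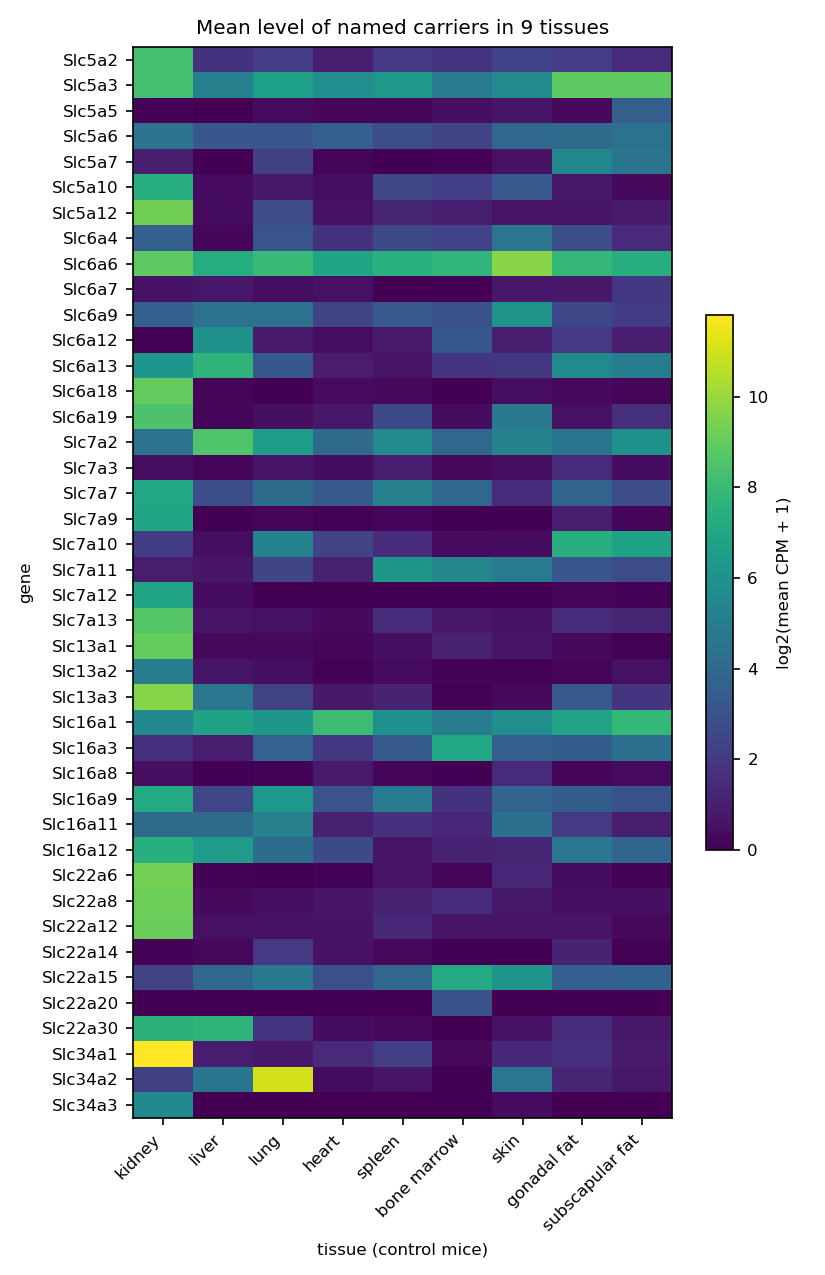
Mean level of the named carriers in control mice (n = 12 for each tissue), shown as colour on a log2(mean CPM + 1) scale, with genes in rows and tissues in columns. The kidney column is bright for most rows, while Slc34a2 is brightest in lung, Slc16a1 in heart, and Slc6a12 and Slc7a2 in liver.

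Of the 90 carriers, a phosphate carrier of the apical membrane had the highest level in kidney. Slc34a1, the main sodium-phosphate cotransporter of the proximal tubule, had the lowest, median and highest levels 2775, 3665 and 4397 CPM in the 12 control kidneys. Its mean per kilobase was 769.5 CPM, the first of all 90 genes in kidney. In liver its mean was 0.942 ± 1.21 CPM, so the organs did not overlap, and the difference was 11.37 ± 0.48 (log2 ± SE, kidney minus liver). Slc34a3, another renal phosphate carrier, was far lower at 45.2 ± 17.4 CPM in kidney, 19.2 CPM per kilobase. It had no count in any control liver, which makes its kidney mean at least 214-fold higher than a floor of 3 counts over the 12 livers.

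Among the Slc5 genes, Slc5a12, a lactate carrier, had the highest level per kilobase at 153.6 CPM. Its 12 control kidneys ran from 386.6 over a median of 644.3 to 853.5 CPM. Slc5a2, which reclaims most of the filtered glucose, ran from 229.2 over 296.5 to 517.4 CPM in kidney, against a mean of 2.32 CPM in liver, a log2 difference of 6.79 ± 0.35. Slc5a10, a mannose and fructose carrier, was at 172.5 ± 32.8 CPM in kidney. It had 3 counts in all control livers together, for a ratio of 793 with an exact counting interval of 271 to 3847 (95%, counting error only).

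Apical amino acid carriers followed. Slc6a18 and Slc6a19 take up neutral amino acids from the filtrate. Slc6a18 ran from 240.2 over 468.4 to 791.5 CPM and Slc6a19 from 196.5 over 367.8 to 494.9 CPM in control kidneys. Their livers held 2 counts and 1 count in all. Slc7a9, the cystine carrier that pairs with Slc3a1, ran from 83.8 over 121.5 to 161.9 CPM in kidney and had no count in control liver, so that its kidney level was at least 590-fold higher than the floor. Slc7a13, a carrier for acidic amino acids and cystine, spread from 0 to 1061 CPM among the control kidneys with a median of 280.2 CPM, a spread that followed sex as described further on. Slc6a6, the taurine carrier, was at 465.9 ± 55 CPM in kidney and was also expressed elsewhere, with a kidney minus liver difference of 1.03.

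Sulfate, carboxylate and urate carriers were likewise concentrated in kidney. Slc13a1, the apical sulfate carrier, ran from 384.3 over 500.3 to 781 CPM and had 3 counts in control liver, a ratio of 2537 (counting interval 868 to 12303). Slc13a3, a basolateral dicarboxylate carrier, ran from 572.4 over 820.6 to 994.7 CPM and was present in liver at 23.8 ± 7.96 CPM, a difference of 4.53 ± 0.21 (log2 ± SE). Slc13a2, its apical relative, was at 32.4 ± 13.9 CPM in kidney. Slc22a12, the urate exchanger, ran from 275.8 over 561.4 to 943.7 CPM in kidney, with a difference from liver of 10.08.

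The basolateral uptake carriers Slc22a6 and Slc22a8, both organic anion transporters, were at 642.2 ± 279.5 and 587.6 ± 167.3 CPM in control kidney. Slc22a6 had 1 count in control liver, a ratio of 8153 with a counting interval of 1463 to 322053. Slc22a2, an organic cation carrier, also had 1 count in liver, a ratio of 2552 (458 to 100827). For Slc22a8 the kidney minus liver difference was 10.12 on the log2 scale. In the Slc16 family, per kilobase, Slc16a12, a creatine carrier, and Slc16a9 were among the highest in kidney, at 42.2 and 38.1 CPM. Slc16a9 was higher in kidney than in liver by 4.38, whereas Slc16a12 differed by 0.40, which did not pass the threshold. With library size outside the abundant features as the scale, Slc16a12 differed by 0.94 (edgeR quasi-likelihood test, Benjamini-Hochberg adjusted p = 0.000777).

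The promoters of some carriers hold AGGTCA, a sequence bound by nuclear receptors, the class of transcription factors to which the hormone and lipid sensors of kidney and liver belong. RefSeq promoter windows on GRCm38.p6 were found for 65 of the 90 genes, 87 windows in all. AGGTCA was searched in the 250 bases before each start on both strands. It was present in 11 of the 87 windows (12.6%) and in 4607 of all 32851 promoter windows (14.02%). The windows below are those of carriers named in the results whose match lies within 90 bases of the start, and they show where the match sits. Each is 90 bases long, 5′ to 3′ on the gene's strand, and capitals mark AGGTCA or its reverse complement.
Slc34a3 (chr2:25234235-25234324, minus strand): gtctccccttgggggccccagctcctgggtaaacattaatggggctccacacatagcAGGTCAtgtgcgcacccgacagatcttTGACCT
Slc7a9 (chr7:35448987-35449076, plus strand): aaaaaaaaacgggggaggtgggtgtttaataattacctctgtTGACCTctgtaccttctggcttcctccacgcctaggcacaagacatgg
Slc7a7 (chr14:54410204-54410293, minus strand): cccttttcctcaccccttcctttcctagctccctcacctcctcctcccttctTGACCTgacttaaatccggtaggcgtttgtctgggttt
Slc22a14 (chr9:119190418-119190507, minus strand): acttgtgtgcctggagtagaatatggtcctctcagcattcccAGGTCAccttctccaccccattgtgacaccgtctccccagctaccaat
The window of Slc34a3 holds a pair of matches, on opposite strands, and the others 1 each. The match in Slc7a7 begins 38 bases before the start, that in Slc7a9 63 bases and that in Slc22a14 70 bases. A match describes the sequence only.

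Across all genes, edgeR's quasi-likelihood test with Benjamini-Hochberg adjustment called 26.0 percent of 17552 genes higher and 22.3 percent lower in kidney than in liver of control mice (adjusted p under 0.05). Of the 69 carriers that passed the low count filter, 43 were higher and 12 lower in kidney, and their median difference was 2.65 against 0.05 for all genes tested (log2). The 21 carriers not tested include Slc7a12, Slc7a13, Slc22a13, Slc22a19, Slc22a22, Slc22a27, Slc22a29 and Slc34a3. All 12 of the tested apical tubule carriers, of 14 on that list, were higher in kidney, with a median of 10.2. It was 9.64 with the one gene without liver counts set at its bound. Of 8 basolateral carriers, 6 were higher in kidney, 1 was lower (a call lost with library size outside the abundant features) and Slc22a7 was not past the threshold. By family, all 4 tested Slc13 and 9 of 10 tested Slc5 genes were higher in kidney, as were 8 of 13 Slc6, 7 of 10 Slc7, 10 of 17 Slc22 and 4 of 13 Slc16 genes.

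Against the mean of the other 8 tissues, 51 carriers were higher and 11 lower in kidney, where 29.1 percent of all genes were called higher and 32.2 percent lower. The carriers' median was 3.39 and that of all genes -0.10 (log2). The same comparison for liver called 22 carriers higher and 27 lower, beside 28.2 percent and 37.3 percent of all genes, with medians of -0.83 and -0.18. Scaled by library size outside the abundant features, the all-gene median moved to 0.58 for kidney minus liver and to -0.81 for liver minus the other tissues. On that scale the carriers split 48 higher to 10 lower between kidney and liver, and 20 to 38 for liver against the others. These 3 comparisons share their control libraries.

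Partner proteins of these carriers were also measured. Of 8 tested partners and scaffolds, 6 were higher in kidney than in liver (among them Slc3a1, Slc3a2, Emb, Pdzk1 and Pdzk1ip1), and Bsg, the chaperone of lactate carriers, was lower by -0.39 (edgeR adjusted p = 0.0389). The direction for Bsg depended on the scale, since its mean CPM was 281.3 in kidney and 251 in liver and the difference with library size outside the abundant features was 0.17 (edgeR adjusted p = 0.199). Of 19 carriers of other families known from kidney, 14 were higher and 4 lower in kidney. Of 7 regulators, 3 were higher (among them Vdr and Esrrg), Ppara and Klb were lower, and 2 did not pass the threshold, Hnf4a among them.

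Liver carried a different set. Slc6a12, a betaine carrier, ran from 56.1 over 62.8 to 74.3 CPM in control liver and was lower in kidney by a log2 difference of -9.29 ± 0.47. Slc6a13, a relative that carries taurine and GABA, ran from 182 over 205.3 to 230.7 CPM in liver, with a difference of -1.98 ± 0.31. Slc7a2, a cationic amino acid carrier, ran from 190.5 over 343.1 to 668 CPM in liver, with a difference of -4.78 ± 0.32. Thus these amino acid and osmolyte carriers stood on the liver side. Slc16a1, the widely expressed lactate carrier, was at 110 ± 27.5 CPM in liver, with a difference of -1.84 ± 0.31. Slc34a2, a phosphate carrier, was at 23.4 ± 21.2 CPM in liver and differed by -2.84. Slc16a10, Slc22a15 and Slc6a9 were also lower in kidney. Slc22a30 was at 202.7 ± 53.8 CPM in liver and 192.1 ± 179.5 CPM in kidney, with a fitted difference of -1.41, and the order of the means turned with sex. Control females had 23.9 CPM of it in kidney and 167.9 CPM in liver, whereas control males had 360.2 and 237.6 CPM. Slc22a26 was called lower in kidney too (-1.72), but control females had means of 12.0 CPM in kidney and 127.5 CPM in liver, against 14.3 and 3.93 CPM in males. No test of kidney against liver was run within a sex. Slc22a23 was called lower in kidney (-0.47, edgeR adjusted p = 0.0231), although its mean CPM was 142.9 in kidney and 127.4 in liver, and with library size outside the abundant features it differed by 0.09 (edgeR adjusted p = 0.665). The call for Slc22a26 was lost without the 6 kidneys low in S3 markers described further on. Of the thyroid hormone and monocarboxylate carriers, 6 tested, Slc16a1 and Slc16a10 were lower in kidney and 4 did not pass the threshold. Of 6 tested genes of hepatic uptake, 5 were lower in kidney, with a median of -6.12. The liver genes per kilobase that come next in their families were low or shared with kidney. Slc5a3, the myo-inositol carrier, was at 34.6 CPM, and Slc13a3, Slc5a6 and Slc7a7 below 24 CPM.

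Some carriers had their highest level outside both organs. Slc34a2, the phosphate carrier of alveolar cells, was at 2061 ± 840.5 CPM in control lung, and the next tissue, skin, was at 23.7 CPM. One control lung, that of male 68, was at 4.26 CPM, and this is the library whose lung markers were low and whose adipocyte markers summed to 8991 CPM. Without it the control lungs ran from 1594 to 3078 CPM with a mean of 2248 ± 562 (n = 11). Slc16a11 (34.7 CPM) and Slc22a14 (2.88 CPM) also had their highest mean in lung.

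Skin held Slc6a9, a glycine carrier, at 69.0 ± 21.9 CPM, against 20.5 CPM in lung, as well as Slc6a4, the serotonin carrier, at 24.0 CPM and Slc16a8 at 1.64 CPM. In bone marrow, Slc22a20 was at 6.90 ± 2.45 CPM and nearly absent elsewhere, with 0.0304 CPM in the next tissue. Bone marrow also held Slc16a3, the lactate exporter of glycolytic cells, at 136.6 ± 24.4 CPM, against 18.6 CPM in the next tissue, and Slc22a15 at 147.6 ± 23.7 CPM, against 68.7 CPM. These bone marrow values for Slc22a20 and Slc16a3 did not overlap with the next tissue. In spleen, Slc7a11, the cystine and glutamate exchanger, was at 75.9 ± 12.9 CPM. In gonadal fat, Slc7a10, a carrier of small neutral amino acids, was at 167.4 ± 42.6 CPM, Slc5a7, the choline carrier, at 42.2 ± 36.1 CPM and Slc7a3 at 1.73 CPM. In subscapular fat, Slc5a3 was at 475.6 ± 292 CPM, and Slc5a5, the iodide carrier, and Slc6a7 were at 10.9 ± 17.0 and 2.73 CPM with medians near 0. Slc16a1 was highest in heart at 276.9 ± 51.4 CPM, but subscapular fat at 229.5 ± 258.7 CPM overlapped with it.

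Female and male kidneys differed in most carriers tested. With both treatment groups in the fit and treatment as a covariate, 28 of 62 tested carriers were higher in females and 14 were higher in males (edgeR, adjusted p under 0.05), beside 13.2 percent and 12.9 percent of all 11476 genes. The median female minus male difference was 0.29 for the carriers and 0.02 for all genes tested (log2). All 11 females lay above all 11 males for 3 carriers, Slc22a29, Slc7a8 and Slc22a17, and below them for 7. The number of all genes apart in this way is not given here. Within the families, the Slc22 genes were split with 8 higher in females and 7 in males, whereas 6 of 7 tested Slc7 and 6 of 9 tested Slc5 genes were higher in females, and none of 3 tested Slc13 genes passed the threshold. Fitted on control mice only, 25 of 61 carriers were called, 14 higher in females and 11 in males. The share of all genes called in that fit is not given here. Of the Slc7 genes higher in females it kept only Slc7a8, losing Slc7a1, Slc7a2, Slc7a7, Slc7a9 and Slc7a12. Of the Slc5 genes higher in females it lost Slc5a2.

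The widest difference was that of Slc7a13 (chromosome 4, 19818725 to 19842218 on mm10, plus strand). Its lowest, median and highest levels were 0, 0.978 and 3.46 CPM in the 11 female kidneys and 558.6, 831.2 and 1061 CPM in the 11 male kidneys. The female minus male difference was -9.53 ± 0.26 (edgeR adjusted p = 1.49e-19), a ratio of the male to the female mean of 809. Every male was far above every female. Slc3a1, whose product pairs with Slc7a13 as with Slc7a9, differed by 0.06 ± 0.16 (adjusted p = 0.847).

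Organic ion carriers of the Slc22 family made up most of the other genes higher in males. Slc22a30 ran from 12.7 over 22.5 to 32.2 CPM in females and from 254.7 over 325 to 436.9 CPM in males, a difference of -3.90 ± 0.12. Slc22a28, its neighbour on chromosome 19, ran from 22.2 over 32.6 to 60.5 CPM in females and from 167.1 over 233 to 253.4 CPM in males (-2.80 ± 0.10). These neighbours share sequence, since 68.2% of the 31-letter words of Slc22a28 and 42.9% of those of Slc22a30 also stand in another gene, so how reads were divided between them is uncertain. Slc22a6, the basolateral organic anion carrier, ran from 275.7 over 356.2 to 446.3 CPM in females and from 664.3 over 874 to 1014 CPM in males (-1.38 ± 0.08). Slc22a2, the organic cation carrier, ran from 69.7 over 132.9 to 156.6 CPM in females and from 209.1 over 258.9 to 293.2 CPM in males (-1.11 ± 0.09). In all of these, and in Slc22a22 (34.04 to 54.53 against 87.7 to 158.1 CPM, -1.58) the sexes did not overlap.

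Of the apical carriers, Slc5a8, which takes up lactate and other monocarboxylates, ran from 79.3 over 198.8 to 244.6 CPM in females and from 335.8 over 511.3 to 626.5 CPM in males (-1.52 ± 0.14). Slc22a12, the urate exchanger, ran from 267.5 over 398.4 to 521.3 CPM in females and from 438.4 over 690.9 to 1007 CPM in males (-0.92 ± 0.13), with some overlap. Slc6a9 and Slc16a9 were also lower in females, by -1.02 and -0.59. Slc34a1 differed little. Its female kidneys ran from 2297 over 3221 to 4397 CPM and its male kidneys from 2775 over 3704 to 4137 CPM, a difference of -0.25 ± 0.09 (edgeR adjusted p = 0.048). That call was lost in 19 of 28 alternatives, with differences from -0.37 to -0.16, among them the fits without any 1 of 17 mice, for example without male 62 (-0.22, adjusted p = 0.0862).

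Slc22a29 was the carrier with the widest difference towards females. It ran from 51.1 over 79.3 to 91.5 CPM in females and from 0.962 over 1.70 to 3.62 CPM in males, a difference of 5.15 ± 0.16. It shares 44.04% of its 31-letter words with other genes, mainly its neighbour Slc22a27, so its count is uncertain too. Slc7a8, a basolateral neutral amino acid exchanger, ran from 197.6 over 263.2 to 382 CPM in females and from 96.6 over 127.3 to 169 CPM in males (0.94 ± 0.10), without overlap. Its partner Slc3a2 was higher in females as well, by 0.47 ± 0.07, with means of 152.8 and 103.6 CPM.

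Slc7a12, Slc22a7, Slc22a19 and Slc22a13 were also higher in females, but with a wide spread within each sex. Slc7a12 ran from 15.1 over 314.4 to 478.9 CPM in females and from 4.34 over 53.1 to 108 CPM in males (2.25 ± 0.48). Slc22a7, an organic anion carrier, ran from 15.1 over 75.8 to 127.2 CPM in females and from 2.73 over 20.2 to 35.5 CPM in males (1.93 ± 0.33). Slc22a19 differed by 1.53 ± 0.35 and Slc22a13 by 1.495 ± 0.34. For Slc22a13, 41.5% of the 31-letter words also stand in another gene, chiefly its pseudogene. On control mice only, the differences of Slc7a12 (1.999, adjusted p = 0.105), Slc22a19 (1.36, adjusted p = 0.156), Slc22a13 (1.30, adjusted p = 0.138) and Slc6a17 (0.84, adjusted p = 0.156) did not pass the threshold in edgeR.

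Smaller differences towards females were measured for Slc6a4, the serotonin carrier (1.35 ± 0.17), Slc5a6, a vitamin carrier (1.08 ± 0.18), Slc22a23 (0.90) and Slc6a17 (0.86). The glucose carriers Slc5a2 and Slc5a1 differed by 0.38 and 0.46, the lactate carrier Slc5a12 by 0.47, the phosphate carrier Slc34a3 by 0.65 and the amino acid carriers Slc7a9, Slc7a7 and Slc6a19 by 0.42, 0.37 and 0.31, all higher in females. On control mice only, the calls of Slc5a2 (0.30, edgeR adjusted p = 0.238), Slc7a9 (0.37, 0.0518), Slc7a7 (0.39, 0.148) and Slc6a19 (0.42, 0.0702) were lost. Slc22a8 was higher in females by 0.49, the opposite sign to Slc22a6. Of the 14 apical carriers, 6 were thus higher in females and 4 in males, and of the 8 basolateral carriers 4 and 2. For Slc13a3 on the basolateral list the difference did not pass the threshold.

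**Figure D2:**
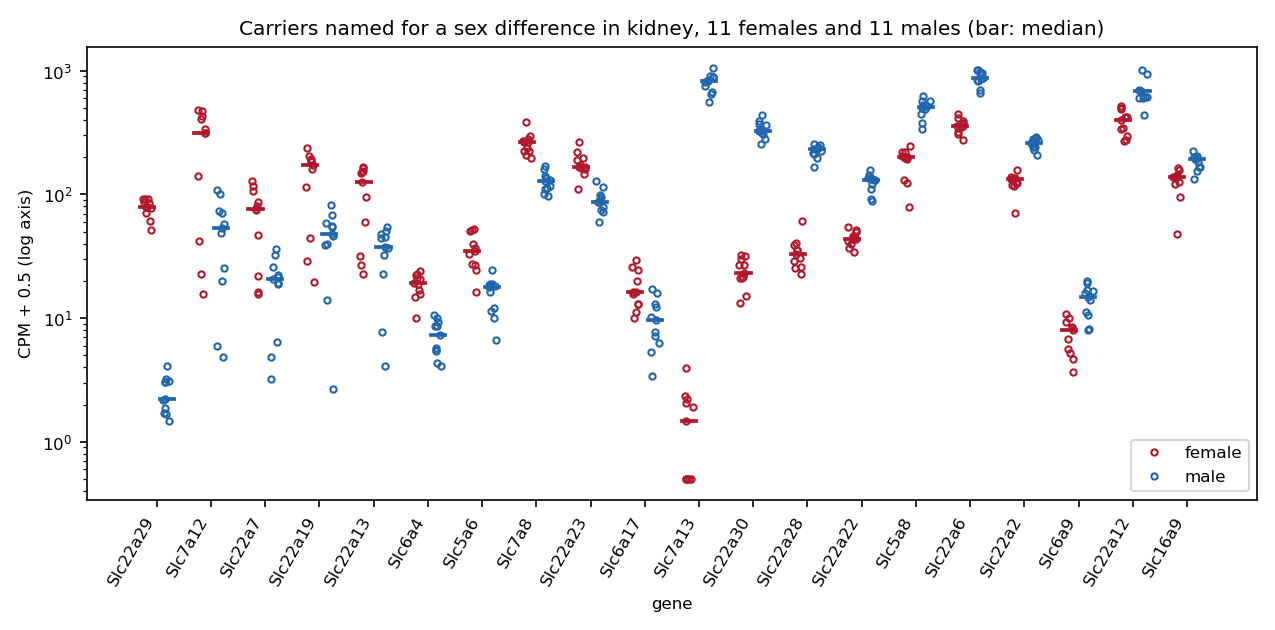
Level of each carrier named for a sex difference in kidney, as CPM + 0.5 on a log axis, in 11 females and 11 males. Each circle is 1 mouse and each bar the median, with the carriers higher in females on the left and those higher in males on the right. The circles of the sexes are fully apart for Slc22a29, Slc7a13, Slc22a30 and Slc22a28, and those of Slc7a12, Slc22a7, Slc22a19 and Slc22a13 spread widely within each sex.

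Carriers outside the 7 families differed by sex too. Of 19 other kidney carriers, 4 were higher in females and 8 in males. Slco1a1, an organic anion carrier, had means of 0.243 CPM in females and 378.8 CPM in males (-9.95 ± 0.27), and Slc12a3, the thiazide-sensitive carrier of the distal tubule, had means of 3013 and 1139 CPM (1.31 ± 0.18). Of 7 regulators, Ppara was higher in females, and 3 were higher in males, Hnf4a and Hnf4g among them. Of 8 partners, Slc3a2 and Emb were higher in females and 2, Slc9a3r1 among them, in males.

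Segment markers, none of them from the 7 families, moved with sex as well. Summed proximal tubule markers had a median of 21603 CPM in females (12778 to 23745) and 29965 CPM in males (25414 to 33703). Summed markers of the S3 segment, the last and straight part of the proximal tubule, had medians of 2691 and 3742 CPM. Those of the distal convoluted tubule had medians of 3065 and 1355 CPM, with females from 2560 to 5452 and males from 794 to 2008. This list holds Slc12a3, given above with means of 3013 and 1139 CPM, so its sum is no separate observation. Podocyte markers were 390 to 796 CPM in females and 310 to 389 CPM in males. Thick ascending limb markers, which include Slc12a1, were 3636 to 6697 CPM in females and 1131 to 4271 CPM in males. Collecting duct markers were 210 to 327.2 CPM in females and 113.7 to 222.8 CPM in males. More cells of a segment and more marker RNA per cell cannot be told apart in these sums. The part of these marker levels in the sex differences of the carriers was not tested. Kidneys of females also had more counts outside the abundant features, with a median of 1447214 against 1100503.

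Kidneys with low values of Slc7a12, Slc22a7, Slc22a19 and Slc22a13 for their sex were also low in S3 markers, and in markers of some other segments. Split at the widest gap in the summed S3 markers of each sex, 4 females (3, 11 and 22 of the control group and 6 of the aPAPPA group, 703.5 to 1651 CPM) lay below the other 7 (2334 to 3182 CPM). In the same way 2 control males (37 and 61, 2473 and 2562 CPM) lay below the other 9 (3397 to 4224 CPM). Thus 5 of the 6 kidneys low in S3 markers came from control mice. The same kidneys were low in thick ascending limb markers without overlap, at 3636 to 5108 CPM against 5551 to 6697 CPM in females and at 1131 and 2668 CPM against 3045 to 4271 CPM in males. Summed proximal tubule markers were also lower in the 4 females (12778 to 19040 CPM against 20380 to 23745 CPM), while the 2 males, at 28570 and 30930 CPM, lay within the range of the others. Collecting duct markers were not low, at 265.8 to 327.2 CPM in the 4 females against 210 to 276.6 CPM in the other 7. For these markers the 2 males, at 153.4 and 191.7 CPM, lay within the 113.7 to 222.8 CPM of the others. The part of the segment make-up of the samples in these carrier levels was not tested. Of 63 carriers with a mean of at least 5 CPM, 5 lay below in these kidneys in both sexes without overlap, the 4 named above and Slc6a18, and 0 lay above in both. Within females 10 lay below and 2 above, and within males 8 lay below and 6 above. How many of all genes did so is not given here, so whether these counts are unusual is not known. The kidneys were divided after seeing the marker values, so these counts are a description.

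Slc7a12 was at 15.1 to 139.2 CPM in the 4 females and 313 to 478.9 CPM in the other 7, and at 4.34 to 5.45 CPM in the 2 males and 19.6 to 108 CPM in the other 9. Slc22a19 was at 18.9 to 114.5 against 161.4 to 237.2 CPM in females and 2.17 to 13.6 against 38.5 to 82.0 CPM in males. Slc22a7 was at 15.1 to 46.1 against 73.7 to 127.2 CPM in females. Slc22a13 was at 22.2 to 58.9 against 94.9 to 166.9 CPM in females. Slc6a18 was at 240.2 to 532.8 against 744.8 to 967.3 CPM in females and 335.8 to 400.7 against 425.7 to 569.4 CPM in males. All 5 are listed because they were low in these kidneys, so their low values in the same mice are no separate observation. In females, Slc22a6 and Slc22a8 lay above in the 4 kidneys.

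Without these 6 kidneys, an alternative chosen after seeing the data, 39 carriers were called for sex in kidney, 38 of them shared with the 42 called in all mice. For this fit, too, the share of all genes called is not given here. The differences of Slc7a12 (2.52 ± 0.23), Slc22a7 (2.05 ± 0.18), Slc22a19 (1.68 ± 0.13) and Slc22a13 (1.66 ± 0.14) kept their direction with smaller errors. Slc6a18, which did not pass in all mice (0.42 ± 0.16, edgeR adjusted p = 0.0565), differed by 0.66 ± 0.07 (adjusted p = 2.87e-07). Slc6a18 and the genes just named had their lowest values within each sex in the kidneys left out. Smaller errors follow from that choice, so they and this adjusted p are no support for the differences. The calls of Slc16a5, Slc5a2, Slc6a19 and Slc7a1 were lost.

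**Figure D3:**
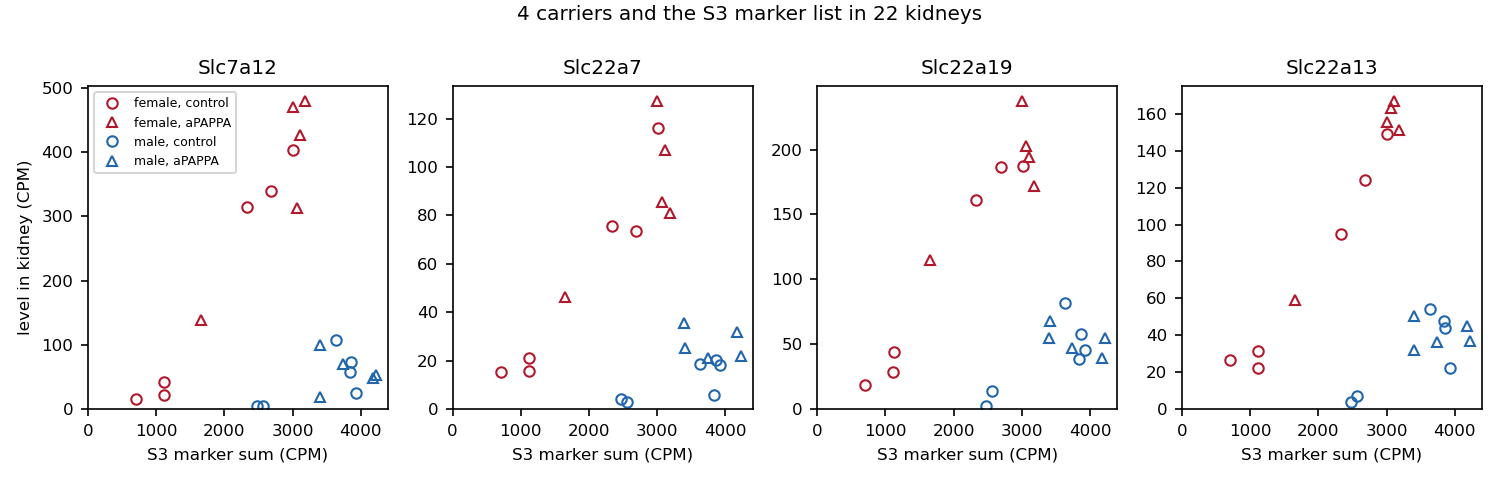
Level in kidney (CPM) of Slc7a12, Slc22a7, Slc22a19 and Slc22a13 against the summed CPM of 5 S3 segment markers, 1 panel per gene, with circles for control and triangles for aPAPPA mice, red for females and blue for males. Within each sex the kidneys at the left of the marker axis are also the lowest for each gene, and 5 of these 6 are control kidneys.

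In liver 5 of 24 tested carriers were higher in females and 3 in males, beside 15.6 percent and 12.7 percent of all 8897 genes. Carrier and all-gene medians were 0.11 and 0.02 (log2, female minus male). Slc22a26 ran from 69.6 over 153.3 to 174.7 CPM in females and from 1.89 over 4.45 to 13.2 CPM in males, a difference of 4.67 ± 0.24 without overlap. Slc22a27 ran from 43.8 over 71.4 to 106.9 CPM in females and from 1.78 over 8.78 to 22.3 CPM in males (2.79 ± 0.23). Both lie on chromosome 19 in the same row of genes as Slc22a28, Slc22a29 and Slc22a30, between 7781041 and 8405111 on mm10. Of the words of Slc22a27, 46.9% also stand in other genes, mainly Slc22a29, and of those of Slc22a26 11.9% do.

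Slc34a2, the phosphate carrier, ran from 3.30 over 40.4 to 65.8 CPM in female livers and from 2.68 over 5.65 to 30.2 CPM in male livers (1.84 ± 0.40), and on control mice only the difference was 1.49 (edgeR adjusted p = 0.0632). Slc16a11 and Slc6a6 were higher in females by 0.83 ± 0.22 and 0.38 ± 0.11. The call of Slc6a6 was lost on control mice only (adjusted p = 0.0913) and without the low count filter (adjusted p = 0.161). Slc22a30 was higher in males, with medians of 155.7 and 247.9 CPM (-0.55 ± 0.10), as was Slc22a18 (-0.47 ± 0.12). Slc22a7 was at 14.5 CPM in females and 24.1 CPM in males on average (-0.78 ± 0.28, edgeR adjusted p = 0.0356). Its call was lost in 9 of 27 alternatives, the fit on control mice only and the fits without mouse 3, 18, 20, 23, 37, 41, 45 or 62, with differences from -0.89 to -0.66. Summed hepatocyte markers overlapped between the sexes, with medians of 99416 CPM in females and 95105 CPM in males.

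The sex differences of kidney and liver were compared directly in a joint fit. Over all 10671 genes tested, 6.77 percent had a female minus male difference that was higher in kidney than in liver and 6.98 percent one that was lower. Of 53 carriers tested, 9 were higher and 6 lower, with a median of -0.10 against -0.02 for all genes. Slc22a7 stood out with opposite signs, higher in females in kidney and in males in liver, and its term was 2.75 ± 0.46. For Slc22a26 the female excess was in liver, while in kidney the difference was -0.40 ± 0.32 (edgeR adjusted p = 0.396), and the term was -5.05 ± 0.43. Slc22a30 was higher in males in both organs, more so in kidney, with a term of -3.30 ± 0.15. The term of Slc22a28 was 2.10 ± 0.51. In liver it was below the low count filter and was not tested for sex there, with a highest value of 2.20 CPM in females and values of 4.40 to 28.3 CPM in males. As 68.2% of its words also stand in another gene, these values are uncertain.

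The other 11 terms were between -1.12 (Slc6a9) and 1.08 (Slc5a6). With the mouse as a replicate block 13 carriers were called, 12 of them shared, and Slc16a10 (adjusted p = 0.0727), Slc5a1 (0.0594) and Slc6a6 (0.0892) no longer passed in edgeR, while Slc7a8 did (0.73, adjusted p = 0.0492). Leaving out 1 mouse ended the call of Slc16a9 (mouse 6, -0.77) and of Slc5a1 (mouse 3, -0.89). It also ended that of Slc16a10 for 7 mice (3, 4, 9, 36, 55, 61 and 62, from 0.47 to 0.57), of Slc6a6 for 9 mice (3, 6, 9, 20, 33, 41, 56, 68 and 71, from -0.40 to -0.36) and of Slc7a2 for 6 mice (3, 9, 20, 41, 55 and 62, from 0.79 to 0.92). Without the low count filter the calls of Slc16a9 (edgeR adjusted p = 0.0883), Slc5a1 (0.0579), Slc16a10 (0.0709) and Slc6a6 (0.195) were lost as well.

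**Figure D4:**
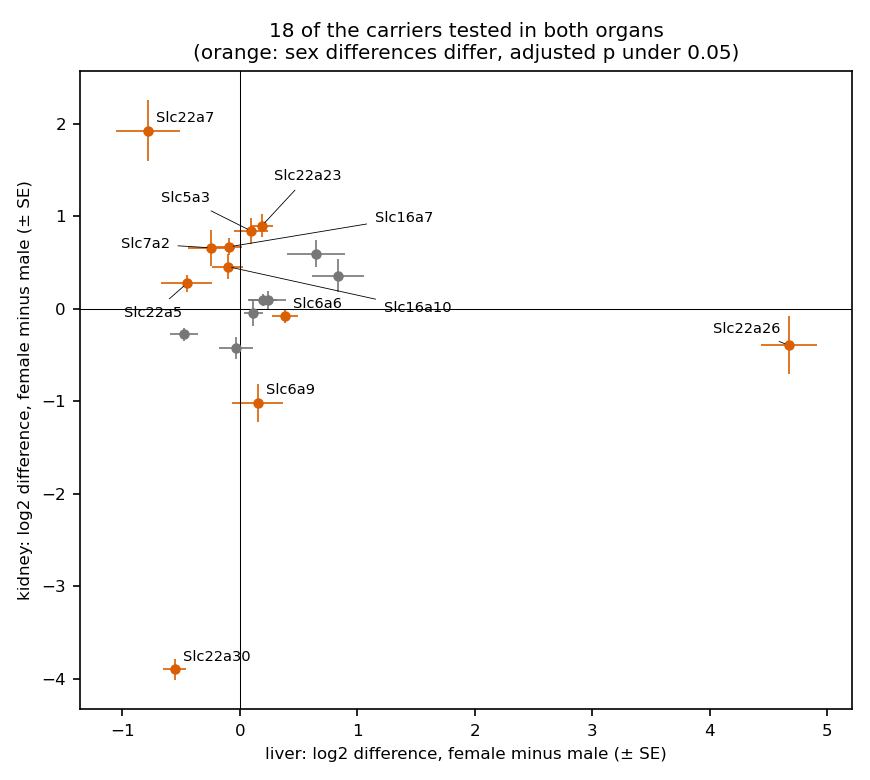
Female minus male difference (log2 ± SE) of 18 of the 20 carriers tested in both organs, with liver on the horizontal and kidney on the vertical axis, and in orange those whose differences differ between the organs in the joint fit. Slc22a7 lies at the upper left, Slc22a30 at the bottom and Slc22a26 at the far right near a kidney difference of -0.40.

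Carriers of both fat depots differed by sex as well. In gonadal fat 2 of 28 tested carriers were higher in females and 7 in males, beside 6.47 percent and 8.64 percent of all genes. Slc5a3, the myo-inositol carrier, ran from 444.1 over 556 to 825.1 CPM in females and from 104.7 over 294.2 to 356.5 CPM in males (1.07 ± 0.16), without overlap. Slc22a17 was higher in females by 1.02. Slc5a7 ran from 0 over 2.43 to 34.7 CPM in females and from 5.82 over 67.7 to 142.7 CPM in males (-2.72 ± 0.56), and Slc16a12 was lower in females by -1.69 ± 0.28. Slc16a3 differed by -1.62 ± 0.51, but by -0.95 (edgeR adjusted p = 0.139) without the library of male 58, whose adipocyte markers were low. Summed macrophage markers had medians of 1174 CPM in females and 1959 CPM in males, and their part in these differences was not tested.

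In subscapular fat 2 of 22 carriers were higher in females and 3 in males, beside 5.91 percent and 9.58 percent of all genes. The 5 calls became 9 with DESeq2, 8 without the low count filter and 3 with the abundant features removed. Slc7a2 ran from 25.2 over 120.7 to 343.9 CPM in females and from 2.60 over 16.9 to 82.7 CPM in males (2.09 ± 0.59), and Slc5a6 differed by 0.70. Slc16a1 ran from 38.6 over 77.5 to 162 CPM in females and from 51.2 over 169 to 815.1 CPM in males (-2.21 ± 0.54), and Slc7a6 and Slc6a6 differed by -0.93 and -0.44. Summed brown adipocyte markers were 3.5 to 2243 CPM in females and 7.6 to 11231 CPM in males, with medians of 517 and 1331 CPM. Summed skeletal muscle markers had medians of 17495 and 3552 CPM and mammary epithelium markers medians of 240 and 2.79 CPM, and the part of these other cells in the differences was not tested. The calls of Slc5a6 without the low count filter (edgeR adjusted p = 0.13) and of Slc7a6 (0.0575) and Slc6a6 (0.0595) with the abundant features removed were lost.

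In the other 5 tissues edgeR called 0 carriers for sex with all libraries in the fit. In bone marrow 0 of 23 passed (4 at an unadjusted p under 0.05), beside 0.721 percent of all 12891 genes (1813 unadjusted). In heart 0 of 19 passed (4 unadjusted), beside 0.187 percent of all 11252 genes (1174 unadjusted), while DESeq2 called 2, Slc6a17 and Slc7a1. Without the 2 hearts low in cardiomyocyte markers edgeR called the same 2 genes, both higher in females, Slc6a17 by 0.99 ± 0.20 (adjusted p = 0.0258) and Slc7a1 by 0.87 ± 0.15 (adjusted p = 0.00615). In lung 0 of 28 passed (4 unadjusted), beside 0.14 percent of all 12886 genes (1240 unadjusted). In skin 0 of 29 passed (7 unadjusted), beside 0.313 percent of all 9894 genes (963 unadjusted). In spleen 0 of 20 passed (4 unadjusted), beside 4.54 percent of all 11978 genes (2300 unadjusted). DESeq2 called 0 carriers in these last 3 tissues and in bone marrow.

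No carrier differed between aPAPPA and control mice at an adjusted p under 0.05 in any of the 9 tissues. In kidney edgeR called 0 of 62 tested carriers and 0 percent of all 11476 genes. At an unadjusted p under 0.05 stood 11 of the 62 carriers and 485 of the 11476 genes. In liver edgeR called 0 of 24 carriers (0 unadjusted) and 0 percent of all 8897 genes (317 unadjusted). DESeq2 called 0 carriers in every tissue. The aPAPPA kidneys held 1.39% ± 0.0965 of their counts in the 90 carriers, against 1.44% ± 0.0517 in control kidneys, and the median difference over tested carriers was -0.03 (log2, aPAPPA minus control).

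The kidney carriers with the smallest p are given as values. Slc22a26 had lowest, median and highest levels of 2.17, 14.5 and 24.7 CPM in controls and 12.4, 27.2 and 55.4 CPM in aPAPPA mice, a difference of 1.13 ± 0.31 (unadjusted p = 0.00137, edgeR adjusted p = 1). Slc22a7 ran from 2.73 over 18.5 to 116.1 CPM in controls and from 20.9 over 40.8 to 127.2 CPM in aPAPPA mice (0.82 ± 0.32). The groups overlapped for both. Slc5a2, the glucose carrier, ran from 229.2 over 296.5 to 517.4 CPM in controls and from 157.6 over 218.8 to 373 CPM in aPAPPA mice (-0.42 ± 0.12, unadjusted p = 0.00171, edgeR adjusted p = 1). Slc6a18 and Slc6a13 differed by 0.37 and 0.27, and Slc13a1, Slc5a12 and Slc34a3 by -0.28, -0.26 and -0.33.

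The summed S3 markers were not even between the treatment groups, at 703 to 3925 CPM in controls (median 2626) and 1651 to 4224 CPM in aPAPPA mice (median 3290). Without the 6 kidneys low in these markers, Slc22a26 differed by 0.76 (edgeR adjusted p = 0.473), Slc22a7 by 0.39, Slc6a18 by 0.12, Slc6a13 by 0.12, Slc34a3 by -0.22 and Slc5a2 by -0.35, and again 0 carriers were called. The differences of Slc22a7, Slc6a18, Slc6a13 and Slc34a3 were smaller by more than 1.5 times without these kidneys. Those of Slc13a1 (-0.28) and Slc5a12 (-0.25) stayed near their values in all mice. Most kidneys left out were controls, and Slc22a7 and Slc6a18 had their lowest values within each sex in them. For these genes a smaller difference follows from that choice, and the part of the segment make-up was not tested.

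**Figure D5:**
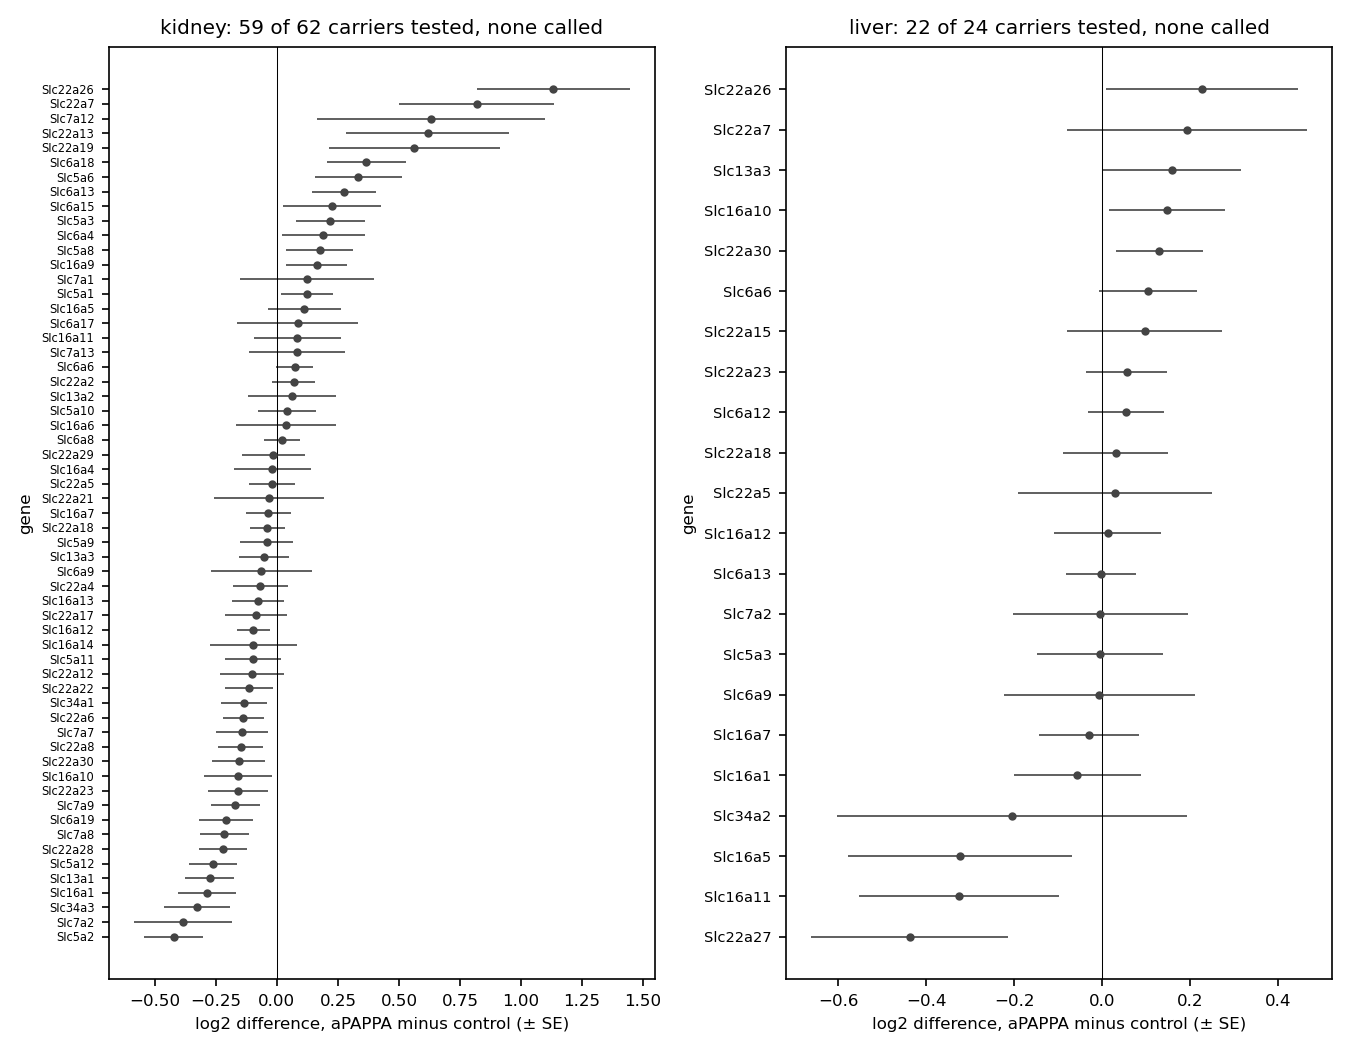
Difference between aPAPPA and control mice (log2 ± SE) of 59 of the 62 carriers tested in kidney and 22 of the 24 tested in liver, sorted by size within each panel. None was called at an adjusted p under 0.05, and the kidney values run from -0.42 for Slc5a2 to 1.13 for Slc22a26.

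In liver Slc22a27 was at 45.9 ± 37.4 CPM in controls and 35.2 ± 31.8 CPM in aPAPPA mice, with a difference of -0.44 ± 0.22 (unadjusted p = 0.0624) and a spread that follows sex. Slc16a11, Slc16a5 and Slc34a2 differed by -0.33, -0.32 and -0.20, and Slc22a26, Slc13a3, Slc16a10 and Slc22a30 by 0.23, 0.16, 0.15 and 0.13. Fits with a sex by treatment term called 0 of 62 carriers in kidney (4 unadjusted), with 0 percent of all 11476 genes (504 unadjusted). In liver they called 0 of 24 carriers (0 unadjusted), with 0 percent of all 8897 genes (296 unadjusted). DESeq2 called 0 carriers for this term in both organs.

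In bone marrow edgeR called 0 of 23 carriers for treatment (1 unadjusted), beside 0.00776 percent of all 12891 genes (905 unadjusted). Slc5a3 was at 41.7 ± 9.07 CPM in aPAPPA and 29.3 ± 8.17 CPM in control marrow (0.41 ± 0.13, edgeR adjusted p = 0.573), and Slc7a2, Slc7a8 and Slc16a3 differed by 0.16, -0.37 and -0.13. In subscapular fat 0 of 22 were called (1 unadjusted), with 0 percent of all 11019 genes (261 unadjusted). Slc16a4 was at 6.83 ± 3.11 CPM in aPAPPA and 11.8 ± 3.08 CPM in control mice (-0.69 ± 0.19, unadjusted p = 0.00133, edgeR adjusted p = 0.9998), and Slc6a8, Slc5a6 and Slc22a15 differed by 0.61, 0.26 and -0.40.

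In gonadal fat 0 of 28 were called (2 unadjusted), with 0 percent of all 11993 genes (609 unadjusted). Slc16a3 differed there by 1.37 ± 0.50, and by 0.59 without the library of male 58. Slc7a1, Slc5a3 and Slc22a23 differed by 0.53, -0.21 and -0.24. In lung 0 of 28 were called (3 unadjusted), with 0 percent of all 12886 genes (887 unadjusted). Slc7a10 differed there by -0.91 ± 0.33, and by -0.46 without the lung of control male 68, which held 161.1 CPM of it against 9.92 to 54.3 CPM in the other control lungs. Slc6a8, Slc16a3 and Slc16a1 differed by 0.32, 0.47 and -0.39.

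In spleen 0 of 20 were called (2 unadjusted), in heart 0 of 19 (0 unadjusted) and in skin 0 of 29 (0 unadjusted), with 0 percent of all genes in each. In spleen Slc22a15 and Slc7a11, the cystine carrier, differed by 0.51 and 0.21, and Slc16a10 and Slc16a1 by -0.64 and -0.29. In heart Slc16a6 and Slc7a1 differed by 0.49 and 0.19, and Slc6a6 by -0.21. In skin Slc6a4 and Slc16a3 differed by 0.43 and 0.48, and Slc7a2 and Slc7a1 by -0.39 and -0.24.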

How the data were processed

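Whole tissue RNA was made into stranded total RNA libraries, per the labels' protocols, and FastQC 0.11.5, Salmon and the build mm10 are named in the submitters' processing notes. The authors deposited whole-number counts per gene, and how Salmon's estimates became whole numbers is not given in the sources used here. Groups came from the labels, with each mouse as 1 replicate of a tissue, and p-values of fits within a tissue measure the spread between mice. Tissue fits and the joint sex fit held several libraries per mouse, and the mouse was a block only as an alternative. The members and gene lists were chosen with earlier results of these data known, so counts over them are descriptions.

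All fits used the deposited counts in R 4.3.3. The test was the quasi-likelihood one of edgeR 4.0.16, two-sided, after filterByExpr and TMM scaling. Adjusted p-values (Benjamini-Hochberg) cover every gene of a fit, with a threshold of 0.05. Treatment fits had sex as a covariate and sex fits treatment. Tissue fits used the 12 control mice. CPM were computed from counts outside 9 abundant features (each 0.9% of counts or more on average). Gene models are GENCODE vM21, which held all 90 members. A check on simulated counts preceded the fits.

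The text names up to 3 members per family by level per kilobase in kidney and up to 2 in liver, up to 3 per other tissue by ratio to the next, up to 10 per direction by sex in kidney and liver and 3 elsewhere, and the 4 (kidney, liver) or 2 (other tissues) per direction with the smallest p for treatment. Other names were added after their values were seen, and a few genes within this rule or these lists are not reported here. Kidney and liver of 1 mouse are paired by the labels. Their deviations from the group means had a median correlation of -0.0319 over 22 mice (11306 genes), against 0.00519 for different mice.

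Alternatives were DESeq2 1.42.0, RLE scaling, library size outside the abundant features, those features removed, no low count filter, the mouse as replicate block, control mice only, each mouse left out and libraries in doubt left out. Leaving out the kidneys low in S3 markers was added after seeing the data. Figures were drawn with matplotlib 3.10.9.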

Additional observations from a re-analysis of the deposited data

Results flagged for a closer look

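In 3 of 43 groups of 10 mice examined, 1 sample stood far from the rest, and chance gives this in about 1 in 20 groups. Slc16a3 was at 155.48 CPM in the gonadal fat of aPAPPA male 58, with the next mouse at 35.96 CPM, and the adipocyte markers of that library were low. Slc6a13 was at 144.52 CPM in the kidney of aPAPPA female 23, with the next at 98.44 CPM. Slc16a11 was at 29.2 CPM in the liver of aPAPPA female 33, with the next at 16.57 CPM.

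For 15 carriers the female minus male difference in kidney differed from that in liver by the test of the difference itself (log2, kidney minus liver, edgeR). It was 2.75 for Slc22a7, 2.10 for Slc22a28, 1.08 for Slc5a6, 0.95 for Slc7a2, 0.80 for Slc16a7, 0.79 for Slc5a3, 0.76 for Slc22a5, 0.75 for Slc22a23 and 0.60 for Slc16a10. It was -5.05 for Slc22a26, -3.30 for Slc22a30, -1.12 for Slc6a9, -1.0 for Slc5a1, -0.95 for Slc16a9 and -0.41 for Slc6a6.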

How the results depend on the processing

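Under other settings, 465 counts of carriers stayed within 1.5 times the reported count and 7 did not. Those 7 were all for sex: in heart 2 with DESeq2 and 2 without the libraries in doubt, in kidney 25 and in liver 5 on control mice only, and in subscapular fat 9 with DESeq2, 8 without the low count filter and 3 with the abundant features removed. Among single carriers, 2838 values kept their direction and side of the threshold, 70 lost the call, 1 gained it and 1 changed sign. The sign changed for Slc34a2 by treatment in liver (-0.39 to 0.026 with 1 mouse left out, the highest without mouse 68), which was not called, and, outside this count, for Slc22a23 between kidney and liver (0.09 with library size outside the abundant features).

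With 1 mouse left out, carriers called ran from 53 to 56 for kidney against liver, 61 to 63 for kidney and 46 to 51 for liver against the other 8 tissues, 37 to 42 and 7 to 10 for sex in kidney and liver, 11 to 16 for the comparison of sex differences and 0 to 0 for treatment and its term with sex. With the mouse as replicate block 55, 62, 50 and 13 carriers were called, the last against 15, and the block changed no call of kidney against liver or against the other tissues. Low counts left 28 of 90 carriers in kidney and 66 in liver untested for sex and treatment.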
